A study of Mus musculus with 38 samples.

Results

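The genes described are Klf2, Klf4 and Klf5, the Krüppel-like factors of naive pluripotency, which were listed by name and make up 3 of the 21938 protein-coding genes of GENCODE M21. Their histone marks had been measured by ChIP-seq (chromatin immunoprecipitation followed by sequencing) in ES-E14TG2a mouse embryonic stem cells (mESCs), kept in medium with serum and leukaemia inhibitory factor (LIF) and collected at 0 h, before any differentiation. The 2 groups were IκBα-WT (WT) and IκBα-KO (KO). In the KO, CRISPR-Cas9 with a pair of guide RNAs had cut exon 1 of Nfkbia, the gene of IκBα, and the WT clones had received scrambled guides. Each genotype had 3 clones, numbered 1 to 3, and each of 5 marks (H3K4me3, H3K27ac, H3K4me1, H3K27me3 and H3K9me3) had 1 library per clone, which gave 30 ChIP libraries. The other 8 of the 38 samples were inputs, 1 per genotype and experiment, and H3K27ac and H3K4me1 shared a pair.

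Klf2, Klf4 and Klf5 are zinc finger transcription factors that bind GC-rich and CACCC-type sequences. In mESCs they hold the naive state together with Nanog, Esrrb and Tfcp2l1 and partly stand in for one another. Klf4 is a direct target of LIF and Stat3 signalling, Klf2 responds more to inhibition of the Mek/Erk pathway, and Klf4 is also one of the classical reprogramming factors. H3K4me3 marks promoters that are active or ready for use, H3K27ac active promoters and enhancers, H3K4me1 enhancers and the flanks of promoters, H3K27me3 Polycomb-repressed genes and H3K9me3 heterochromatin. Neighbouring stretches of H3K27ac and H3K4me1 over many kb are a known feature of genes that define a cell type.

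On GRCm38, Klf2 (ENSMUSG00000055148) lies at chr8:72319033-72321656 on the plus strand, Klf4 (ENSMUSG00000003032) at chr4:55527143-55532466 on the minus strand, and Klf5 (ENSMUSG00000005148) at chr14:99298691-99315036 on the plus strand. Each gene was read over a window of the gene body plus 50 kb either side, 102.6 kb for Klf2, 105.3 kb for Klf4 and 116.3 kb for Klf5. The Klf2 window also held Gm10282 and part of Eps15l1, the Klf5 window held part of Pibf1, and the Klf4 window held no other protein-coding gene. Positions below are distances in kb from the member's start site, positive in the direction of transcription.

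The 3 sequences of 300 bases below are shown because H3K4me3 was compared at or beside them: it was called as different at the first and the third, and not at the Klf4 start site. They are the promoters of Klf2 (chr8:72318812-72319111, plus strand) and Klf4 (chr4:55532426-55532725, minus strand), credited to RefSeq on GRCm38, and the centre of an H3K4me3 peak downstream of Klf4 (chr4:55514850-55515149, minus strand). Capitals mark matches, on either strand, of the GC box GGGCGG and of the CACCC box, the kinds of sequence that Krüppel-like factors bind. The first 2 matches in the Klf4 promoter overlap by 1 base.
Klf2 promoter: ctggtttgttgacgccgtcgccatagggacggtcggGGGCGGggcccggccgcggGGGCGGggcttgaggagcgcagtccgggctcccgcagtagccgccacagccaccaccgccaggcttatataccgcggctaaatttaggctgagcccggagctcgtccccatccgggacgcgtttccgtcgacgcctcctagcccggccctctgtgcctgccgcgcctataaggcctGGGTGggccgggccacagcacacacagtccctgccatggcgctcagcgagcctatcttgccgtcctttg
Klf4 promoter: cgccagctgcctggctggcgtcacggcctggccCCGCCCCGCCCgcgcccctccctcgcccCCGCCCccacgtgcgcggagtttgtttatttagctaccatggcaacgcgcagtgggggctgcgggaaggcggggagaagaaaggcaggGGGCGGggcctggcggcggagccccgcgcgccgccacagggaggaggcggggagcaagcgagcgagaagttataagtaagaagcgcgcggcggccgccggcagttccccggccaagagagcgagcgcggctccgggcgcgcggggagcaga
Klf4 downstream H3K4me3 peak: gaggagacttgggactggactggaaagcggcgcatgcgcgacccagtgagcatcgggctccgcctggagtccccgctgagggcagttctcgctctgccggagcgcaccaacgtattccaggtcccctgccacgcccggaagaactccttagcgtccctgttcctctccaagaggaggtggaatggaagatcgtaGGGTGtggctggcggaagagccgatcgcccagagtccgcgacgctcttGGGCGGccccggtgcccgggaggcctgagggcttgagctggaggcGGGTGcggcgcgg

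All 3 sequences were CpG-rich. The Klf2 promoter had 69.3% GC and 32 CpG, the Klf4 promoter 74.3% GC and 40 CpG, and the downstream peak 67.7% GC and 28 CpG, against a median of 52.7% GC and 7 CpG over 32851 RefSeq promoters of the same length. The GC box matched 2 times in the Klf2 promoter, 4 times in the Klf4 promoter and 1 time in the peak, and 35.7% of all promoters held it. The CACCC box matched 1 time in the Klf2 promoter and 2 times in the peak, and 57.5% of promoters held it. The STAT motif TTCNNNGAA (in 8.30% of promoters), CCAAT (37.4%) and TATAAA (13.6%) had no match in any of the 3 sequences. These matches describe letters and not bound sites.

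Before the members are described, the libraries need a short account. The H3K4me3 lists held 21836 to 26806 peaks and no read counts, and the KO libraries had 19.02 to 22.1 Mb under peaks against 17.2 to 19.3 Mb in the WT. ChIP reads in called regions came to 22.9 to 28.3 M (M, mega) for H3K27ac, 34.7 to 36.0 M for H3K4me1, 8.91 to 10.9 M for H3K27me3 and 8.55 to 12.1 M for H3K9me3. Of 6 mESC marker promoters, Pou5f1, Sox2 and Zfp42 had H3K4me3 and H3K27ac calls in all 6 libraries, Nanog and Dppa4 had H3K27ac in all 6 with H3K4me3 in some, and the annotated 5′ end of Esrrb had neither and H3K27me3 in all 6. All 8 promoters of primitive endoderm and fibroblast markers had H3K27me3 calls in all 6 libraries, and among them Thy1 had H3K4me3 in all 6 and Pdgfra in 1 KO library. H3K27ac was called in all 6 libraries at Gata6, Pdgfra and Thy1, in 3 WT and 2 KO at Col1a1, in 1 WT at Gata4, and in 3 KO and no WT libraries at Pdgfrb, a fibroblast marker. The part of these markers in the results was not tested. Nfkbia did not check the labels, since the stretch of its promoter under H3K4me3 peaks was 479, 731 and 704 bp in the WT and 0, 360 and 586 bp in the KO (two-sided exact permutation p = 0.2). These cultures are populations of cells, so that fewer cells carrying a mark and less of the mark per cell cannot be told apart.

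Calls of the active marks covered the 3 windows very differently. H3K27ac calls covered on average 96.9% of the Klf2 window in the WT, 91.1% of the Klf5 window and 35.8% of the Klf4 window. That placed Klf2 above 99.9% of genes, Klf5 above 98.8% and Klf4 above 61.9%, where the median gene had 23.2%. H3K4me1 followed the same order, with 93.9%, 88.2% and 40.6%. H3K27me3 had the reverse order and covered 19.7% of the Klf4 window, 2.58% of the Klf5 window and 1.04% of the Klf2 window in the WT. Klf2 and Klf5 thus lay inside nearly unbroken blocks of H3K27ac and H3K4me1, and Klf4 lay among separate islands of active marks with H3K27me3 between and over them.

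**Figure D1:**
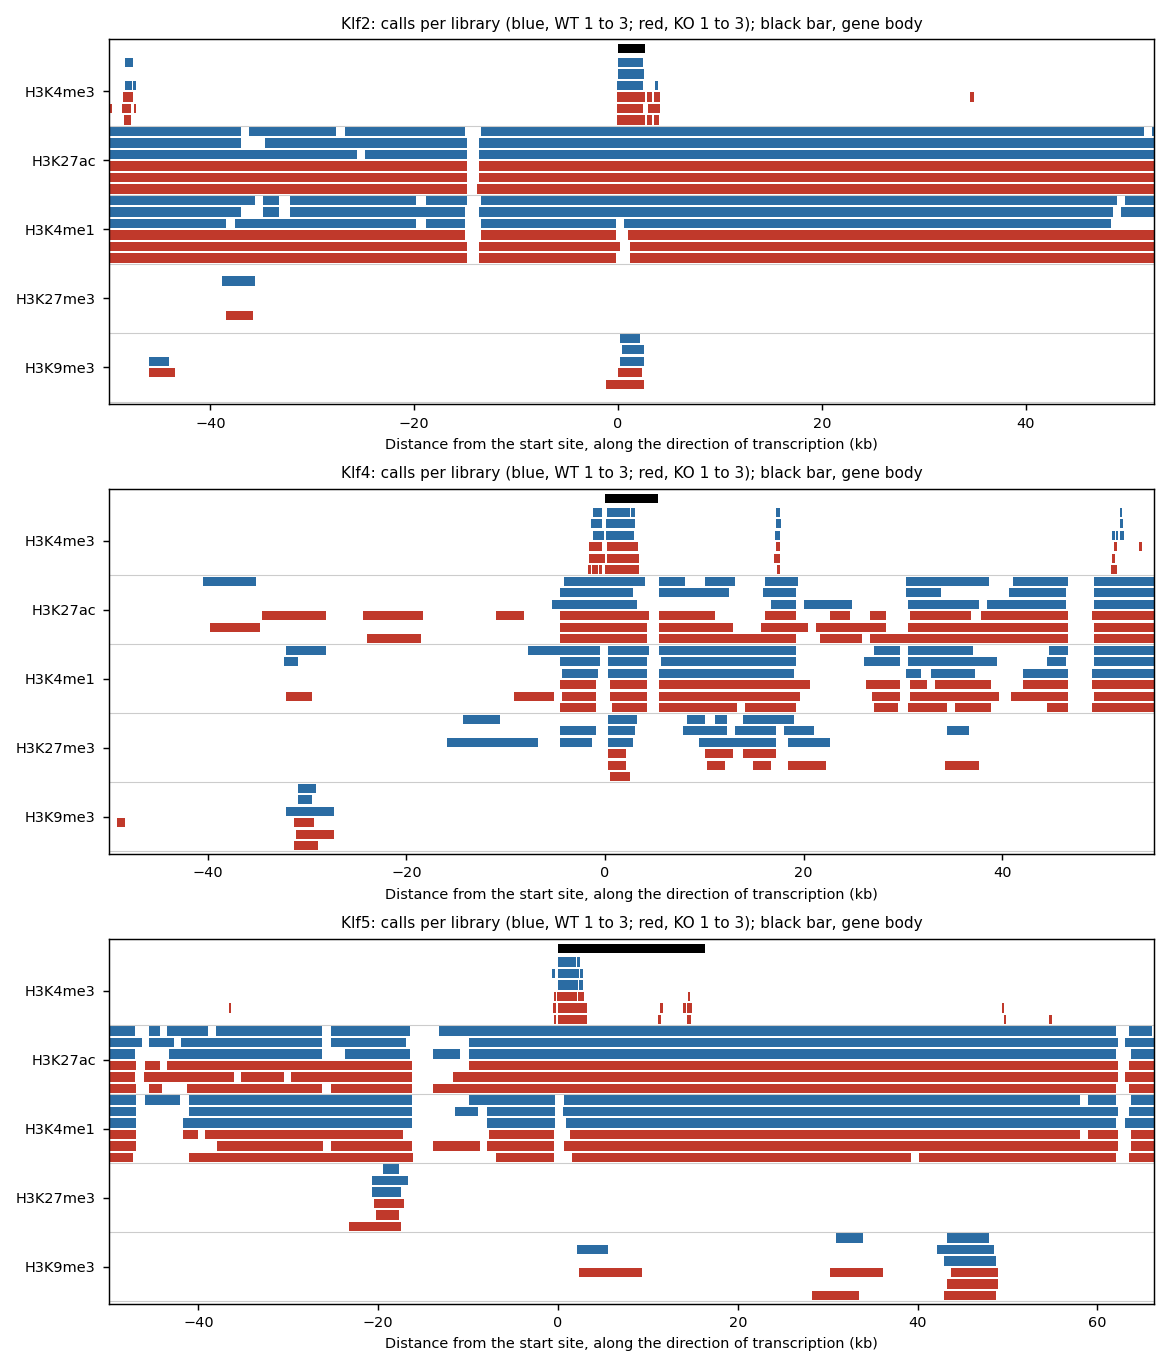
Calls of each mark in each library (rows; blue, WT 1 to 3; red, KO 1 to 3) over the windows of Klf2, Klf4 and Klf5, against the distance from the start site in kb, with the gene body in black. H3K27ac fills most of the Klf2 and Klf5 windows in all libraries, while at Klf4 the KO libraries cover 55.3 to 58.3 kb against 33.3 to 42.7 kb in the WT, and H3K27me3 calls there cover 2000 to 12600 bp in the KO against 15000 to 27000 bp in the WT.

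Covered sequence was compared over libraries with a two-sided exact permutation test, for which 3 against 3 libraries cannot give a p under 0.1. All exact p-values below come from this test. All 3 members had more sequence under H3K4me3 peaks in every KO library than in any WT library, against a background of 36.2% of genes whose 3 WT and 3 KO values did not overlap for this mark, in either direction. H3K27ac did not overlap at Klf2 and Klf4 (background 40.6%), H3K4me1 did not overlap at Klf2 (34.5%), H3K27me3 did not overlap at Klf4 (23.4%) and H3K9me3 overlapped at all 3 (20.9%). The genotypes thus stood apart in 7 of the 15 pairs of member and mark. Of the 6293 genes whose H3K4me3 values stood apart, 5258 were higher in the KO, and the KO libraries had more sequence called in all.

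**Figure D2:**
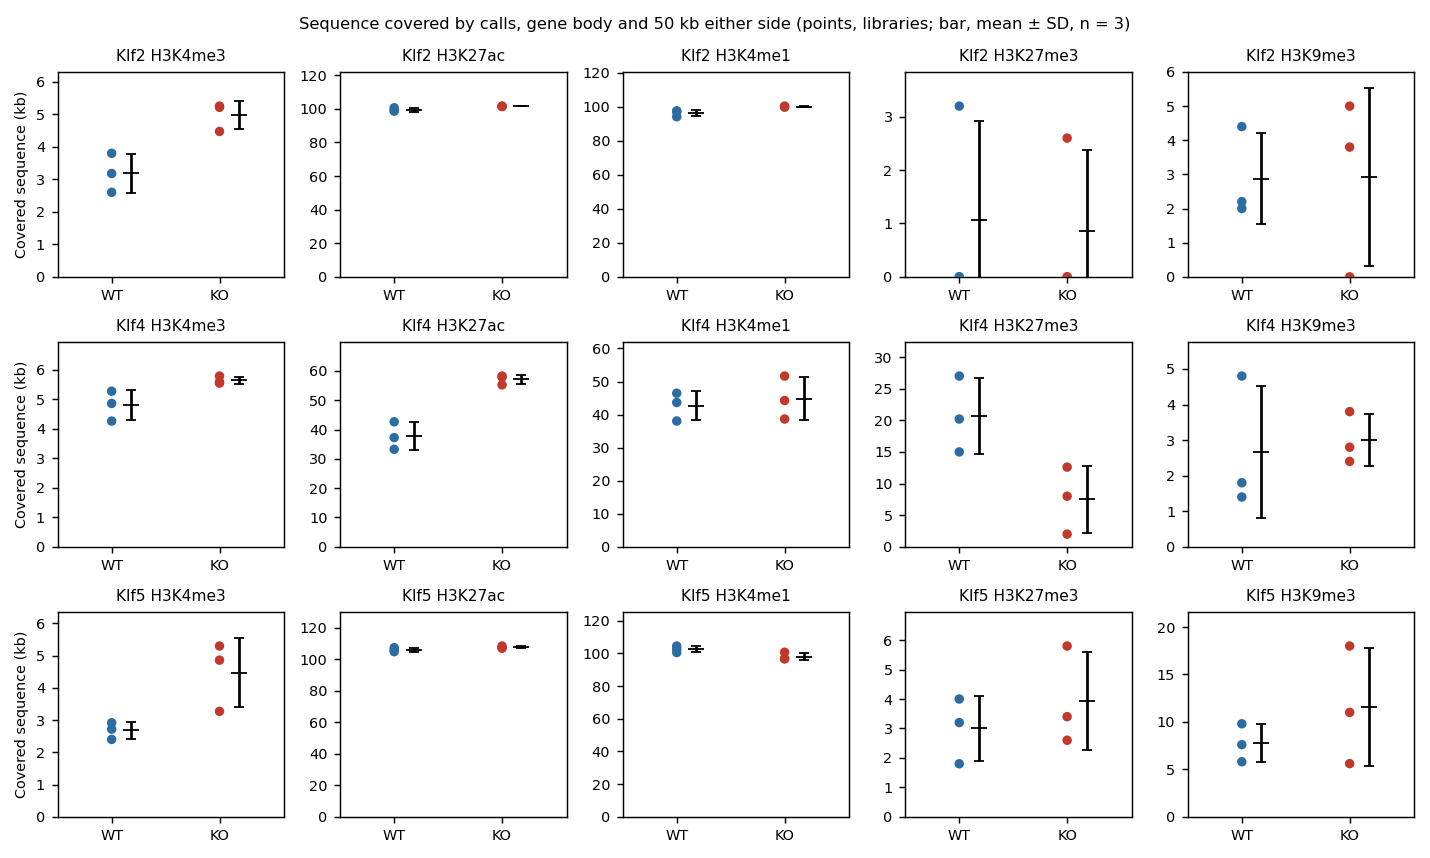
Sequence covered by calls (kb) in the window of each member, for each mark, in 3 WT (blue) and 3 KO (red) libraries, with the mean ± SD beside the points and a vertical axis from 0. H3K4me3 is higher in all KO libraries at all 3 genes, and H3K27me3 at Klf4 is at 15000 to 27000 bp in the WT and 2000 to 12600 bp in the KO.

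To compare signal within calls, calls of the 6 libraries were merged where they overlapped. The 3 windows touched 62 merged regions, of which 30 were called in all 6 libraries and could be tested, 5 at Klf2, 13 at Klf4 and 12 at Klf5. H3K4me3 was tested with limma on the log2 fold enrichment over input, and the other marks with edgeR on ChIP reads per covered length, both with Benjamini-Hochberg adjustment over all tested regions of the mark and a threshold of 0.05. At this threshold 7 of the 30 regions were higher in the KO, 3 were lower and 20 were not called. The share called among all regions, in either direction, was 16.6% for H3K4me3, where 2 of 4 member regions were called. It was 12.8% for H3K27ac (4 of 9 member regions), 5.64% for H3K4me1 (4 of 13), 2.73% for H3K27me3 (0 of 2) and 0.435% for H3K9me3 (0 of 2). These shares are over regions of all lengths and read depths. They were not matched to the member regions or to those of the gene lists below. Among H3K27ac regions whose covered length was alike in the 6 libraries, 1856 of 4054 were called.

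Scaling moved the split of the calls over the genome, and so bears on small differences. For H3K4me3, 64.6% of the 2471 calls were higher in the KO, and 50.2% with the libraries set to the same median. For H3K27ac it was 64.2%, which became 13.9% with TMM (trimmed mean of M-values) factors taken before scaling by length, a setting that lowered the median log2 KO/WT of all regions by 0.12, and 34.9% with no TMM. For H3K4me1, 70.9% became 90.6% and 52.6% under the same 2 settings. With TMM taken before scaling, 62.1% became 20.98% for H3K27me3, and 38.7% became 74.6% for H3K9me3. With no length offset, with input reads as the offset or among regions of like length the share lay between 46.6% and 60.6% for these 4 marks. Of the 10 called member regions, the Klf5 H3K27ac region changed direction under such a scaling, as given with it below.

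**Figure D3:**
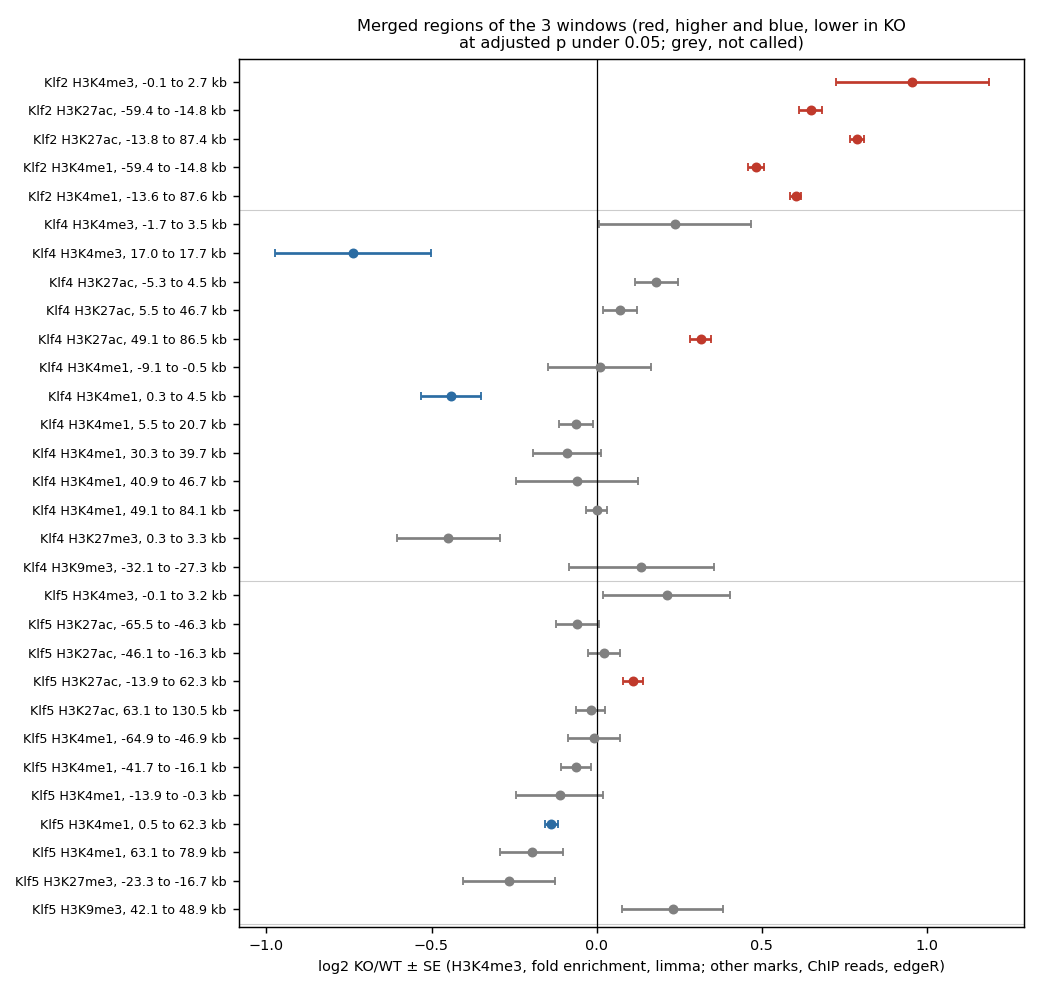
Log2 KO/WT with its standard error for the 30 merged regions of the 3 windows that were called in all 6 libraries, named by member, mark and distance from the start site in kb. Red points (higher in the KO) include all 5 Klf2 regions, from 0.48 to 0.96, blue points (lower) are 2 Klf4 regions and 1 Klf5 region, and grey points were not called.

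Klf2 is the shear-stress and quiescence factor of endothelium and lymphocytes, and binds many of the same sites as the other 2 members in mESCs. Its promoter had higher H3K4me3 in the KO. The peak over the start site, from −0.1 to 2.7 kb, which overlaps the 3′ part of the promoter sequence given above but starts downstream of its 2 GC boxes in every library, had a fold enrichment over input of 7.11, 11.2 and 7.15 in the WT and 19.04, 12.1 and 18.01 in the KO. The lowest KO value, that of KO 2, was close to the highest WT value, that of WT 2, and the groups did not overlap (8.48 ± 2.34 and 16.4 ± 3.74, mean ± SD, n = 3 each, exact p = 0.1). In the limma test this was a log2 KO/WT of 0.96 ± 0.23 (SE) at an adjusted p of 0.00641, and 670 of the 699 other tested H3K4me3 regions of the chromosome 8 stretch described below had a lower log2 KO/WT.

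The Klf2 peak was also wider and scored higher. It spanned 2423, 2597 and 2552 bp in the WT and 2754, 2609 and 2768 bp in the KO, so that KO 2 and WT 2 were nearly equal. Its −log10 q was 21.1, 34.6 and 28.3 in the WT and 72.1, 58.9 and 66.0 in the KO. Over the whole window H3K4me3 covered 3176, 2597 and 3796 bp in the WT and 5247, 5209 and 4468 bp in the KO (3190 ± 600 and 4975 ± 439, mean ± SD, n = 3 each, exact p = 0.1). The added sequence lay mostly just 3′ of the gene. Of the 6176 bp called in any library, 670 bp (10.8%) were called in all 3 KO and in no WT library, where 4.38% of H3K4me3 sequence in the genome was restricted to either genotype. The longest of these stretches ran from 2.96 to 3.303 kb and others from 3.49 to 3.65 kb and from 3.93 to 4.00 kb.

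**Figure D4:**
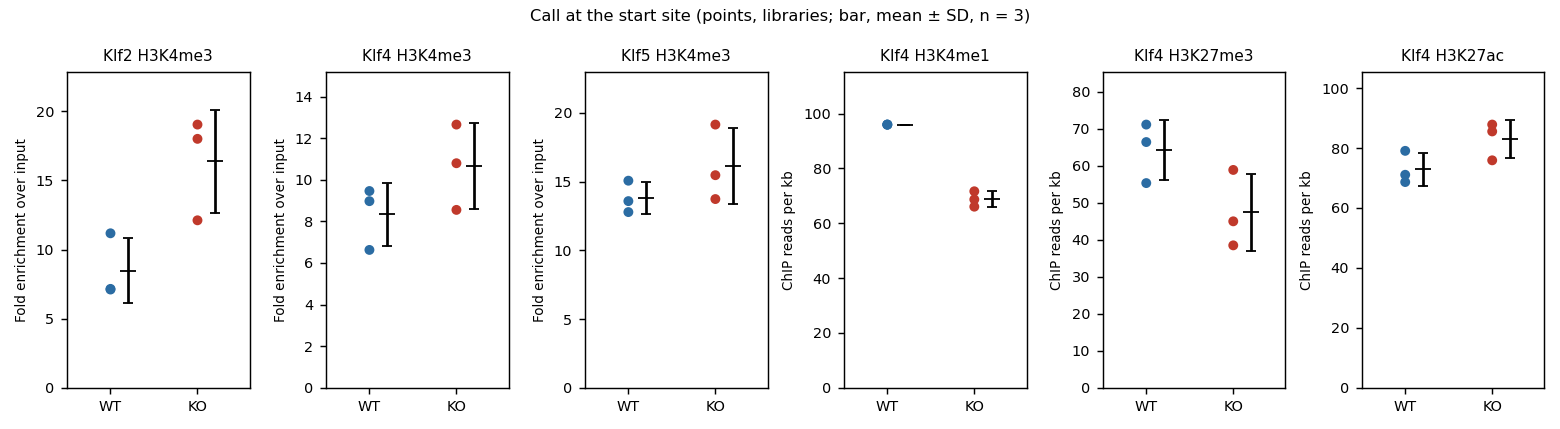
Fold enrichment of the H3K4me3 call at the start site of Klf2, Klf4 and Klf5, and ChIP reads per kb of the call at the Klf4 gene for H3K4me1, H3K27me3 and H3K27ac, in 3 WT (blue) and 3 KO (red) libraries, with the mean ± SD beside the points and vertical axes from 0. The groups do not overlap for Klf2 H3K4me3 (7.11 to 11.2 against 12.1 to 19.04) and Klf4 H3K4me1 (96.0 in each WT library against 66.1 to 71.7), and overlap in the other 4 panels.

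Klf2 lies within a stretch of chromosome 8, from 40 to 129 Mb, where input reads were higher in the KO, and this bears on its read counts. In the 1-Mb window that holds Klf2, the log2 KO/WT of input reads per kb was 0.49 in the H3K27ac experiment and 0.51 in that of H3K4me1, close to the stretch medians of 0.50 and 0.51. It was 0.07 in the H3K27me3 and 0.15 in the H3K9me3 experiment, where the stretch medians were 0.38 and 0.37. At Klf4 and Klf5 it lay between −0.06 and 0.05 in all 4 experiments. These are values of 1-Mb windows, and input within called sequence differed more at some marks, as given below. H3K4me3 lists give a fold enrichment over input and hold no input counts, so the input of that experiment at Klf2 could not be compared.

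H3K27ac reads at Klf2 rose by more than input reads. Calls covered 98624, 99024 and 100624 bp of the window in the WT and 101424, 101424 and 101624 bp in the KO (exact p = 0.1), so that the window was nearly full in both. In the WT libraries the calls of the window held 91.2, 101 and 96.7 ChIP reads per kb, and in the KO libraries 167, 172 and 143. All KO libraries were above all WT libraries (ratio of means 1.67, exact p = 0.1), and input reads per kb rose from 32.0 to 44.9 (ratio 1.40). ChIP reads over input reads were 2.84, 3.14 and 3.05 in the WT and 3.73, 3.82 and 3.20 in the KO. These also stood apart (3.01 ± 0.15 and 3.58 ± 0.33, mean ± SD, n = 3 each, exact p = 0.1), as they did at Klf5. The 3 libraries of a genotype share 1 input, so tests relative to input, here and below, do not cover variation between inputs.

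The 2 merged H3K27ac regions of the Klf2 window gave the same picture. CPM here are read counts scaled first by covered length and then to the library's total in tested regions with its TMM factor. The region from −13.8 to 87.4 kb, which holds the gene and reaches over Eps15l1, had 416, 435 and 430 CPM in the WT and 738, 741 and 735 in the KO. Its log2 KO/WT was 0.79 ± 0.02 (SE, edgeR adjusted p = 1.46e-09), and that of the upstream region, from −59.4 to −14.8 kb, was 0.65 ± 0.03 (edgeR adjusted p = 2.39e-07). With input reads as the offset these became 0.20 (edgeR adjusted p = 8.74e-05) and 0.21 (edgeR adjusted p = 0.00114), the highest adjusted p of the 9 alternatives in both. Both regions were thus higher in the KO relative to the 1 input of each genotype, by a smaller log2 difference than in reads per length. These p-values do not cover variation between inputs.

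H3K4me1 at Klf2 rose in step with input. It covered 97624, 97168 and 94168 bp in the WT and 99824, 100424 and 100024 bp in the KO (exact p = 0.1), and with flanks of 20 kb in place of 50 kb the difference was −133 bp. Its calls held 92.6, 94.3 and 94.4 ChIP reads per kb in WT clones, and 126, 134 and 129 in KO clones. The groups did not overlap (ratio 1.38, exact p = 0.1), but input reads per kb rose by a ratio of 1.42, and ChIP reads over input reads were 2.94 ± 0.04 in the WT and 2.87 ± 0.08 in the KO (mean ± SD, n = 3 each), with overlapping groups (exact p = 0.3). The merged regions from −13.6 to 87.6 kb and from −59.4 to −14.8 kb had a log2 KO/WT of 0.60 ± 0.02 (edgeR adjusted p = 6.28e-11) and 0.48 ± 0.02 (edgeR adjusted p = 1.46e-08). With input reads as the offset they were 0.01 (edgeR adjusted p = 0.774) and 0.04 (edgeR adjusted p = 0.185), no longer called, and the other 8 alternatives kept both calls. Stretches restricted to a genotype were few, 400 bp in 3 WT and no KO libraries inside the gene, from 0.57 to 0.97 kb, and 400 bp in 3 KO and no WT libraries at 49.0 kb. Each was 0.394% of the 101424 bp called in any library, below the 1.55% (WT) and 1.38% (KO) of H3K4me1 sequence over the genome, 2.93% for either genotype.

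The neighbours of Klf2 place these values. Within 2 Mb of its start site 83 protein-coding genes had windows that did not overlap its own. Each library's log2 H3K27ac reads per kb at Klf2 minus the median over these neighbours was 0.50, 0.60 and 0.46 in the WT and 0.81, 0.82 and 0.80 in the KO. Reads per kb of called sequence thus rose by 0.29 more at Klf2 than at the neighbour median (exact p = 0.1), by 0.74 against 0.45. Of 82 neighbours with calls in all libraries, 74 had a lower H3K27ac ratio than Klf2. The log2 KO/WT of input reads in the same H3K27ac calls was 0.49 at Klf2, above all 82 neighbours (median 0.43). For H3K4me1 the corresponding difference in ChIP reads per kb was 0.04 (exact p = 0.3). Against the genes within 1 Mb it was −0.03 (exact p = 0.6). The share of the window under H3K27ac rose by 2.01 points at Klf2, which at 96.9% in the WT could hardly rise further, and the neighbour medians went from 64.0 to 66.9% in the WT to 85.4 to 89.1% in the KO, so that shares are not compared for this mark. Reads per kb refer to called sequence, which grew at the neighbours and hardly at Klf2. The difference of 0.29 in H3K27ac reads per kb is not free of this, and how much of it this makes up was not tested. For H3K4me3 the share covered relative to the neighbours differed by 0.10 points (exact p = 1.0), and by −0.39 without KO 1, so that a rise in covered share was also seen around Klf2.

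**Figure D5:**
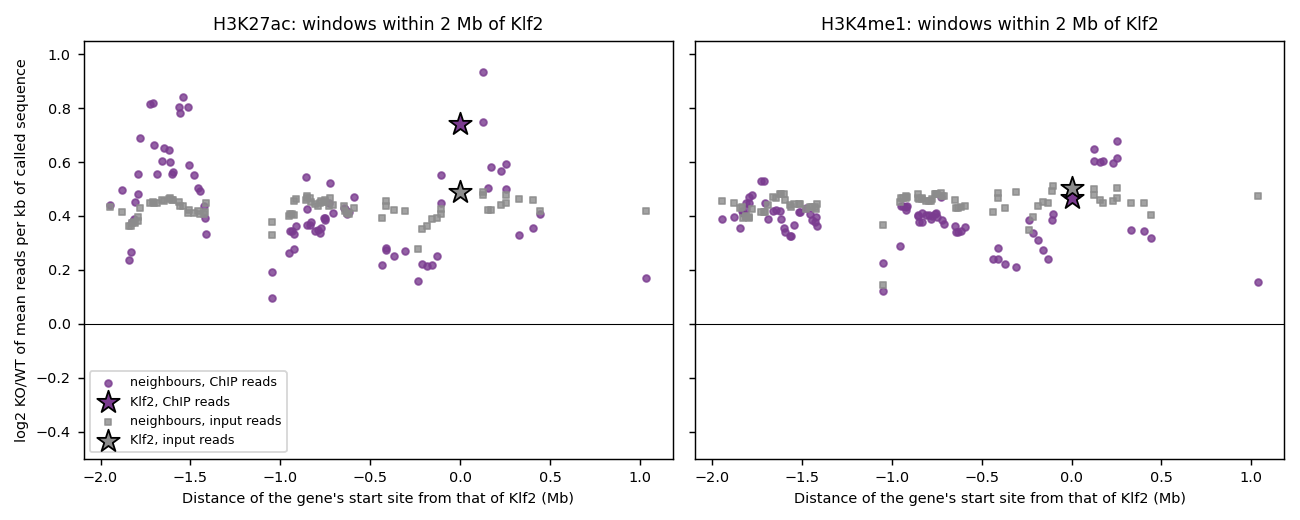
Log2 KO/WT of mean reads per kb of called sequence in the windows of genes within 2 Mb of Klf2, against the distance of their start sites from that of Klf2 in Mb, for H3K27ac (left) and H3K4me1 (right); circles are ChIP reads, squares input reads and stars Klf2. ChIP reads of Klf2 stand at 0.74 for H3K27ac, above 74 of 82 neighbours and above its input value of 0.49, and at 0.47 for H3K4me1, below its input value of 0.50.

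The genes that share the Klf2 blocks moved with it. Over the windows of Gm10282 and Eps15l1, which overlap that of Klf2, mean H3K27ac reads per kb went from 98.2 to 150.5 and from 86.0 to 129.2. The nearest genes with separate windows, Gm11034 upstream and Calr3 (a testis calreticulin) downstream, went from 54.1 to 79.4 and from 76.8 to 129.0. Whole calls are counted, so these values share reads with Klf2, and not evenly over the libraries. The call over the Klf2 start site reached the Calr3 window in WT 2, WT 3 and every KO library, but not in WT 1. The upstream call of the Klf2 window reached the Gm11034 window in WT 3, KO 1 and KO 3. Over the whole stretch, 50.5% of 701 tested H3K27ac regions and 41.6% of 1465 tested H3K4me1 regions were higher in the KO, as were 11.9% of 700 H3K4me3 regions. The H3K27ac region that holds Klf2 had a higher log2 KO/WT than 699 of the 699 other regions, whose median was 0.26, and than 689 of 699 with input reads as the offset, where the median was −0.21. The H3K4me1 region that holds Klf2 was above 1417 of 1463 others, at a median of 0.27, and above 1290 with input reads as the offset. Against the 379 H3K27ac regions of 20 kb or more, a comparison added after seeing the data, it was above 379, and these ranks were not tested.

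Repressive marks were sparse at Klf2. H3K27me3 had 1 call, near −37 kb, in WT 2 (3200 bp) and KO 2 (2600 bp) and none in the other 4 libraries. H3K9me3 had a call over the gene itself in all 3 WT libraries and in KO 1 and KO 2, with 60.5, 41.8 and 32.1 reads per kb in the WT and 54.2 and 37.4 in the KO. The covered sequence of the window was 2000, 2200 and 4400 bp in the WT and 5000, 3800 and 0 bp in the KO (exact p = 1.0), with overlapping groups, and no H3K27me3 or H3K9me3 region of the window was called in all 6 libraries.

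Klf4 is the reprogramming factor of the family and, in the adult, a differentiation factor of gut and skin epithelium. In the KO its window had more sequence under H3K27ac calls and less under H3K27me3 calls. H3K27ac calls covered 42658, 33258 and 37258 bp in the WT and 57858, 55258 and 58258 bp in the KO, which is 35.8% and 54.2% of the window on average. Every KO library was above every WT library (37725 ± 4717 and 57125 ± 1629 bp, mean ± SD, n = 3 each, exact p = 0.1). Over the genome, too, H3K27ac calls covered more in the KO, 410.6 to 419.2 Mb against 380.4 to 392.5 Mb in the WT. Among the genes whose H3K27ac covered sequence stood apart, 5702 were higher in the KO and 1914 lower. Relative to the median of 16 neighbours within 2 Mb, the share covered rose by 8.51 points (exact p = 0.1), since the neighbour median itself rose by 9.91 points. It rose by 15.9 points against genes within 1 Mb and by 17.4 points within 5 Mb (exact p = 0.1 for both).

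H3K27ac reads per kb of called sequence at Klf4 did not stand apart. They were 91.1, 101 and 106 in the WT and 106, 112 and 92.6 in the KO (exact p = 0.5). Whole calls are counted, and the call from about 49 kb, which runs past the end of the window, held most reads in every library. It had 3847 reads in WT 1 and 6537 in KO 1, against 563 and 770 in the start-site call. Called length differed in the window, on both sides of the gene, and reads per length differed in the region of that call, given below. Downstream of the gene 29058, 25858 and 28658 bp were covered in the WT and 33658, 41458 and 44058 bp in the KO, a mean difference of 11867 bp with no overlap. Upstream of the start site it was 9534, 4534 and 5334 bp in the WT and 19734, 9534 and 9934 bp in the KO, a mean difference of 6600 bp, where KO 2 equalled WT 1. Stretches called in all 3 KO and no WT libraries came to 1800 bp, 1600 of them from 26.7 to 28.3 kb, or 2.30% of the 78258 bp called in any library, close to the 2.41% of H3K27ac sequence that was restricted to the KO over the genome (3.86% for either genotype). Of the 3 tested regions, the one from 49.1 to 86.5 kb overlaps the annotated lincRNA Gm12510. This region had 193, 204 and 204 CPM in the WT and 241, 250 and 256 in the KO. Its log2 KO/WT was 0.32 ± 0.03 (SE, edgeR adjusted p = 4.04e-05). The regions over the start site (−5.3 to 4.5 kb) and just downstream (5.5 to 46.7 kb) had a log2 KO/WT of 0.18 ± 0.07 (edgeR adjusted p = 0.100) and 0.07 ± 0.05 (edgeR adjusted p = 0.444) and were not called.

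H3K27me3, by contrast, covered less. It covered 15000, 20200 and 27000 bp of the Klf4 window in the WT and 8000, 12600 and 2000 bp in the KO, which is 19.7% and 7.15% on average. The groups did not overlap, with KO 2 the KO library nearest to WT 1 (20733 ± 6018 and 7533 ± 5315 bp, mean ± SD, n = 3 each, exact p = 0.1). Input reads per kb of these H3K27me3 calls were 16.6 in the WT and 19.6 in the KO. ChIP reads over input reads were 2.01 ± 0.08 and 1.68 ± 0.26 (mean ± SD, n = 3 each), with overlapping groups (exact p = 0.2). Relative to the 16 neighbours, whose median share fell by 1.34 points, the share covered fell by 11.2 points (exact p = 0.1). Over the genome the mark went the other way, with 2733 genes higher and 1480 lower among those that stood apart.

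The islands of H3K27me3 that differed lay on both sides of the gene. WT 2 and WT 3 had a call upstream of the start site, from −4.534 kb, that no KO library had, and KO 3 had none of the calls between 7.866 and 22.665 kb that the other 5 libraries had in part. Stretches called in 3 WT and no KO libraries lay from 9.47 to 10.07 kb and from 2.47 to 2.87 kb, 1000 bp in all. This was 2.94% of the 34000 bp called in any library, beside 1.00% of H3K27me3 sequence restricted to the WT over the genome and 3.05% restricted to either genotype. The call over the gene body remained in all 6 libraries but was shorter in the KO, with 3000, 2800 and 2600 bp in the WT and 1800, 1800 and 2000 bp in the KO (exact p = 0.1). Its density was 55.3, 66.4 and 71.2 reads per kb in the WT against 45.0, 58.9 and 38.5 in the KO, with KO 2 above WT 1 (exact p = 0.2). In edgeR, which takes length into account, the region from 0.3 to 3.3 kb had a log2 KO/WT of −0.45 ± 0.16 (SE) and was not called (edgeR adjusted p = 0.172). With no length offset it was −1.12 and called (edgeR adjusted p = 0.0150), and with TMM before scaling by length −0.54 and called (edgeR adjusted p = 0.0431). Over the 7 alternatives that gave a value, the adjusted p lay between 0.0150 and 0.173, and the other 5 made no call.

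H3K4me3 at Klf4 overlapped between the genotypes in height at the promoter and was lower at a peak downstream. The call at the start site had a fold enrichment of 8.97, 6.63 and 9.46 in the WT and 8.55, 12.7 and 10.8 in the KO. The groups overlapped (exact p = 0.3), and the merged promoter region from −1.7 to 3.5 kb had a log2 KO/WT of 0.24 ± 0.23 (SE, limma adjusted p = 0.507). Covered sequence did stand apart, with 4260, 4856 and 5271 bp in the WT and 5545, 5785 and 5584 bp in the KO (exact p = 0.1), a mean difference of 842 bp. At the edges of the promoter peak 417 bp, from −1.58 to −1.43 kb and from 3.02 to 3.295 kb, were called in all 3 KO and no WT libraries, which is 5.71% of the 7308 bp called in any library beside 3.36% of H3K4me3 sequence restricted to the KO over the genome. Relative to the neighbours the share covered rose by 0.57 points (exact p = 0.1), and by 0.26 points against genes within 1 Mb (exact p = 0.5).

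The downstream peak lay from 17.0 to 17.7 kb, with summits between 17.386 and 17.509 kb in all 6 libraries, and its sequence with 1 GC box and 2 CACCC boxes is given above. No protein-coding GENCODE gene is annotated there. Its fold enrichment was 8.31, 6.33 and 9.35 in the WT and 5.17, 4.26 and 4.82 in the KO. All KO libraries were below all WT libraries, at a log2 KO/WT of −0.74 ± 0.24 (SE, limma adjusted p = 0.0335). The call was lost when WT 1, WT 3, KO 1, KO 2 or KO 3 was left out, at limma adjusted p-values of 0.0961, 0.109, 0.0546, 0.118 and 0.0753, while the log2 KO/WT stayed between −0.90 and −0.62. Farther downstream, a 207 bp stretch from 51.841 to 52.047 kb was called in 3 WT and no KO libraries, while all 3 KO libraries and WT 3 had a call of 246 to 587 bp next to it, from about 51 kb.

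H3K4me1 fell over the Klf4 gene itself. The call there, from 0.3 to 4.5 kb, held 96.0 reads per kb in each of the 3 WT libraries against 68.7, 66.1 and 71.7 in the KO (exact p = 0.1), and was also shorter, at 4200, 4000 and 4000 bp against 3800, 3800 and 3600 bp. Its log2 KO/WT was −0.44 ± 0.09 (SE, edgeR adjusted p = 0.00971). Input reads per kb of the same call were lower in the KO as well, at 26.2 against 31.6, and with input reads as the offset the difference was −0.22 and not called (edgeR adjusted p = 0.0952, the highest of the 9 alternatives, of which the lowest was 3.89e-06). The other 5 tested H3K4me1 regions of the window had a log2 KO/WT from −0.09 to 0.01, and the sequence covered in the window overlapped between the genotypes (exact p = 0.6). Over all calls of the window, ChIP reads over input reads were 2.67, 2.72 and 2.71 in the WT and 2.53, 2.37 and 2.64 in the KO, with every KO library lower (exact p = 0.1). Of the H3K4me1 and H3K27me3 calls over the gene, both with fewer reads per kb on average in the KO, only that of H3K4me1 passed its test on reads per length.

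H3K9me3 at Klf4 was confined to an island near −31 kb in all 6 libraries and 1 further call in KO 1. The region from −32.1 to −27.3 kb had a log2 KO/WT of 0.14 ± 0.22 (SE, edgeR adjusted p = 0.887). It covered 1800, 1400 and 4800 bp in the WT and 2800, 3800 and 2400 bp in the KO (exact p = 0.9), with overlapping groups, and none of its sequence was restricted to a genotype (2.76% over the genome).

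Klf5 acts in the inner cell mass and trophectoderm and, in the adult, in proliferating epithelium. In its window H3K4me3 alone stood apart in covered sequence. It covered 2400, 2918 and 2719 bp in the WT and 3272, 5300 and 4861 bp in the KO (2679 ± 261 and 4478 ± 1067 bp, mean ± SD, n = 3 each, exact p = 0.1), 1.48 points more of the window than its 7 neighbours gained (exact p = 0.1), and 0.94 points against genes within 1 Mb (exact p = 0.2). The peak height at the start site did not stand apart, with a fold enrichment of 13.6, 12.8 and 15.1 in the WT and 13.7, 19.2 and 15.5 in the KO (exact p = 0.2), and the merged region from −0.1 to 3.2 kb had a log2 KO/WT of 0.21 ± 0.19 (SE, limma adjusted p = 0.476). Part of the added sequence lay near the 3′ end of the gene, where 235 bp from 14.45 to 14.69 kb were called in all 3 KO and no WT libraries. These 235 bp were the whole call of KO 1, whose −log10 q of 1.99 would miss a q under 0.01. In all, 457 bp of the window were restricted to the KO. This was 7.39% of the 6186 bp called in any library, beside 3.36% of H3K4me3 sequence restricted to the KO over the genome.

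H3K27ac at Klf5 filled most of the window in both genotypes. It covered 107310, 105946 and 104746 bp in the WT and 106946, 108346 and 107346 bp in the KO (exact p = 0.2). The region from −13.9 to 62.3 kb, which holds the gene, had 415, 442 and 438 CPM in the WT and 483, 466 and 450 in the KO, a log2 KO/WT of 0.11 ± 0.03 (SE, edgeR adjusted p = 0.0334). This call depended on the scaling. The log2 KO/WT was −0.01 with TMM before scaling by length (edgeR adjusted p = 0.838) and −0.01 with no length offset (edgeR adjusted p = 0.640), 0.05 with no TMM (edgeR adjusted p = 0.271) and 0.05 among regions of like length (edgeR adjusted p = 0.0564). It was also lost without WT 1, KO 1 or KO 2, at edgeR adjusted p-values of 0.0937, 0.136 and 0.0913, and the lowest adjusted p of the alternatives was 0.00107, with input reads as the offset. The other 3 H3K27ac regions had a log2 KO/WT from −0.06 to 0.02 and were not called. Over all calls of the window, reads per kb overlapped (exact p = 0.6), while ChIP reads over input reads were 2.75, 2.81 and 2.95 in the WT and 3.60, 3.34 and 3.03 in the KO and stood apart (exact p = 0.1), with input reads per kb at 36.1 and 32.4.

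Over all calls of the Klf5 window, H3K4me1 reads were lower in the KO by about as much as input reads. Per kb of call, WT libraries held 97.3, 92.6 and 98.0 reads and KO libraries 88.9, 85.1 and 87.5. The groups did not overlap (exact p = 0.1), with input reads per kb at 36.4 and 33.2, and ChIP reads over input reads were 2.64 ± 0.08 in the WT and 2.63 ± 0.05 in the KO (mean ± SD, n = 3 each, exact p = 0.9). Against the 7 neighbours the log2 reads per kb fell by 0.12 and the share covered by 10.6 points (exact p = 0.1 for both). The difference in share was −11.4 points against genes within 1 Mb (exact p = 0.1) and −1.74 points within 5 Mb (exact p = 0.5). The region from 0.5 to 62.3 kb, which runs from the gene into its 3′ flank, had 204, 199 and 204 CPM in the WT and 186, 183 and 182 in the KO. Its log2 KO/WT was −0.14 ± 0.02 (SE, edgeR adjusted p = 0.000779). This region stayed lower and called under all 9 alternatives, with input reads as the offset among them, so that it was also lower relative to input. The other 4 H3K4me1 regions were not called, at −0.20 to −0.01.

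Repressive marks at Klf5 were local, and neither tested region was called. H3K27me3 had 1 call near −20 kb in every library, of 1800, 4000 and 3200 bp in the WT and 3400, 2600 and 5800 bp in the KO (exact p = 0.5), and its region had a log2 KO/WT of −0.26 ± 0.14 (SE, edgeR adjusted p = 0.409). Its ChIP reads over input reads were 1.79, 1.27 and 1.46 in the WT and 1.15, 1.06 and 1.15 in the KO, with every KO library lower (exact p = 0.1). H3K9me3 had a call from about 43 to 49 kb in every library, at a log2 KO/WT of 0.23 ± 0.15 (SE, edgeR adjusted p = 0.670). Pibf1, whose 3′ part lies in the window, went from 48.4% to 54.0% of its own window under H3K27ac, and the nearest genes beyond, Dis3 (an exosome nuclease) and Klf12, from 38.4% to 46.1% and from 31.4% to 40.9%. At Klf4 the nearest genes, Rad23b and Actl7b, went from 54.9% to 64.3% and from 38.0% to 46.6%.

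Over all 30 libraries, the genes whose windows were most like a member's were sought by the mean absolute difference of the percent covered. For Klf2 these were Mark2, Zfp281 and Rbpms2, at 1.73, 1.90 and 1.95 points, where the median gene differed by 32.4. For Klf5 they were Plekhf2, Fnbp1 and Tctn1, at 1.90, 1.94 and 2.08 points (median 29.2). Klf4 had no gene as close, with Mrgprd, Zbtb46 and Amotl1 at 3.45, 3.76 and 3.87 points (median 16.7). Mrgprd shared the rise of H3K27ac from 33.7% to 55.8% and differed at H3K4me3, which covered 0.62% and 0.16% of its window.

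The other Krüppel-like factors were read at their promoters, from 5000 bp upstream to 100 bp downstream of the 5′ end, to set the 3 members among their family. Of 14 such genes, 12 had a tested H3K4me3 region, of which 3 were higher in the KO and 1 was lower, at a median log2 KO/WT of 0.42 against 0.06 over all regions, where 16.6% were called. With the libraries at the same median 2 were higher and 2 lower. Klf7 rose from a fold enrichment of 8.41 ± 0.57 to 15.9 ± 1.24 (mean ± SD, n = 3 each, log2 KO/WT 0.92, limma adjusted p = 0.00353), and Klf12 from 7.30 ± 2.23 to 13.96 ± 1.19 (0.98, limma adjusted p = 0.00617). At Klf2 it was 0.96. Klf3 rose by 0.77 (limma adjusted p = 0.0424), with overlapping groups and a call that was lost without any library but KO 2 (limma adjusted p up to 0.190) and with the libraries at the same median (limma adjusted p = 0.0685). Klf13 fell from 20.0 ± 2.98 to 10.0 ± 0.97 (−0.99, limma adjusted p = 0.00159).

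The other marks were counted in the same way, over whole regions that overlap the family's promoters. H3K27ac was higher at 5 of 12 and lower at none, where 12.8% of all regions were called, with a median of 0.07 against −0.01, but with TMM before scaling by length 3 were higher and 3 lower, at a median of −0.05 against −0.13. The 5 were Klf15 (0.37), Klf1 (0.30), Klf13 (0.28), Klf12 (0.22) and Klf3 (0.14), named after their values were seen, and Klf1 lies in the chromosome 8 stretch. H3K4me1 was higher at 2 of 13, Klf1 and Klf15, and lower at 1, Klf9, with a median of −0.03 against 0.00, which was 0.02 against 0.05 with TMM before scaling, and with input reads as the offset 1 was higher and 1 lower. H3K27me3 was called in 0 of 3 such regions in edgeR (median −0.16), with 1 lower under the input offset, and H3K9me3 in 0 of 1 (−0.08).

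The LIF and Stat3 pathway, which feeds Klf4, was read the same way over 12 genes, from the cytokine and its receptor to the kinases and targets. Its H3K27ac regions, too, could reach far beyond the promoter they overlap, as at Socs3 (chr11:117901001-118061800). H3K27ac was higher in 8 of 12 such regions and lower in none. The median log2 KO/WT was 0.14 against −0.01, where 12.8% of all regions were called. That share was not matched to the length or reads of the list's regions, so 8 of 12 is not read as an enrichment. With TMM before scaling by length 4 were higher and 1 lower, at a median of 0.02 against −0.13, and with no TMM 5 were higher and none lower. Tfcp2l1, a Stat3 target of the naive network, rose from 303 ± 7.32 to 396 ± 7.54 CPM (0.39, edgeR adjusted p = 1.22e-06), and Pim1, a kinase gene and Stat3 target, from 129 ± 2.71 to 168 ± 2.94 CPM (0.39, edgeR adjusted p = 5.76e-06). H3K4me3 was higher at 1 of 10, Jak1, the receptor kinase, which rose from a fold enrichment of 10.3 ± 1.65 to 19.05 ± 1.12 (0.89, limma adjusted p = 0.00337), with a list median of 0.08 against 0.06.

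The remaining marks of the pathway gave few calls. H3K4me1 was higher at 2 of 12, Tfcp2l1 and Ptpn11, at a median of 0.02 against 0.00, with 7 higher under no length offset and 1 higher and 1 lower with no TMM. H3K27me3 was lower at 1 of 3, Gbx2, a naive homeobox target, which fell from 254 ± 25.6 to 184 ± 3.12 CPM (−0.46, edgeR adjusted p = 0.00213), at a median of 0.01, and H3K9me3 was called at 0 of 2 (median −0.07). The other tested H3K27me3 regions, at Jak1 and Ptpn11, were at 0.01 and 0.15 and not called. Klf4, at the end of this pathway, had the direction of Gbx2 in its gene body, with an H3K27me3 log2 KO/WT of −0.45 that was not called.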

How the data were processed

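The authors' lists of called regions of the 30 ChIP libraries were used, and the 8 inputs entered through them. Per the published methods, reads were trimmed by the authors with Trim Galore 0.6.6, who aligned them to GRCm38 with Bowtie2 2.4.4 (the aligner for H3K27ac is not stated), removed multimapping and low-quality reads, marked duplicates with SAMtools 1.15 and left out blacklisted sequence. H3K9me3 is not described there. The deposited H3K4me3 lists (MACS2 2.2.7.1) give the fold enrichment over input, −log10 p-value, −log10 q-value and a score per peak. The deposited lists of the other marks (epic2, listed as SICER 0.0.52 in the submitters' processing notes) hold, per region and in steps of 200 bp, counts of reads in the ChIP and in its input, the log2 fold change between them, a score, the FDR and a p-value. Calls had an FDR or q under 0.05 and were made per library. The labels name 1 antibody for H3K27ac and H3K4me1, and the methods another for H3K27ac.

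Calls overlapping each window were summed, and reads per kb refer to whole calls. Libraries were compared with two-sided exact permutation tests over the 20 assignments of 3 of 6. Merged regions (overlap of at least 1 bp) called in all 6 libraries were tested with edgeR 4.0.16 (quasi-likelihood, covered length as offset, TMM) or, for H3K4me3, with limma 3.58.1 on the log2 of the highest fold enrichment, in R 4.3.3. Neighbours were genes within 2 Mb with a separate window, compared for pairs of member and mark whose covered sequence or reads per kb stood apart. Windows were computed with Python 3.11.15 and pandas 2.3.3, and plots drawn with matplotlib 3.10.9. Scripts were tested on simulated data.

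Named in full were the 3 members, the genes in or next to their windows, the 3 genes of most like profile, and up to 4 genes of each list with the largest called change at any mark. The members and lists were chosen with earlier results of these data known. Clones are the replicates. Read totals are given with the libraries, and sequenced reads are not independent molecules. Replicate numbers did not pair the samples.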

Additional observations from a re-analysis of the deposited data

How the results depend on the processing

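The 77 values and counts above were recomputed under 328 alternatives other than leaving out a library. Of 158 on tested regions, 147 kept direction and call, 6 lost and 3 gained a call and 2 changed direction. Exact tests cannot pass a threshold here, so only direction and overlap were followed: of 64 alternatives for 19 values whose groups stood apart, 54 kept them apart, in 7 they overlapped and 3 changed direction, and of 65 for 17 values with overlapping groups 12 changed direction. Groups overlapped for Klf2 H3K27ac covered sequence with 20 kb flanks (200 bp, exact p = 0.6), Klf4 H3K27me3 with 100 kb flanks (−12267 bp, exact p = 0.2), Klf5 H3K4me1 reads over input (−0.0102, exact p = 0.9), and 4 comparisons with neighbours at other distances, Klf4 H3K4me3, Klf5 H3K4me3 and, for Klf5 H3K4me1, share and log2 reads per kb (−0.08 within 1 Mb, exact p = 0.2). In the exceptions below the cause was not tested. With flanks of 20 kb, the KO minus WT difference in covered sequence was −133 bp for H3K4me1, 0 bp for H3K27me3 and −133 bp for H3K9me3 at Klf2 and 0 bp for H3K9me3 at Klf4, and that in reads per kb at Klf4 was −1.89 for H3K27ac and 0.286 for H3K27me3. With flanks of 100 kb, H3K9me3 was −1400 bp at Klf2 and −400 bp at Klf4. Relative to input, H3K4me1 reads per kb at Klf2 differed by −0.0762, and relative to all calls of the library, Klf4 reads per kb differed by −0.000156 for H3K27ac and 0.00582 for H3K27me3. At an FDR under 0.01 Klf5 H3K27me3 covered −1067 bp, and with equal numbers of top-ranked calls Klf5 H3K9me3 −66.7 bp. Against neighbours within 1 Mb, Klf2 H3K4me1 differed by 1.59 points in share and −0.0297 in log2 reads per kb. With input reads as the offset, the log2 KO/WT was 0.0435 and 0.0078 for the Klf2 H3K4me1 regions and −0.22 for that of Klf4. The Klf5 H3K27ac region was at −0.0102 with TMM before scaling by length, −0.0133 with no length offset, 0.0485 with no TMM and 0.0536 among regions of like length. For Klf4 H3K27me3, DESeq2 and regions of like length gave no value.

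Counts of called regions moved by over 1.5 times as follows. H3K4me3 had 1498 calls among regions over the median enrichment (2471 before). H3K27ac had 5180 with TMM before scaling, 1856 among regions of like length, 5902 with no length offset and 5291 with the input offset. With no length offset and with the input offset, H3K4me1 had 10341 and 8773 (2516 before), H3K27me3 1918 and 2378 (514) and H3K9me3 2024 and 6246 (119), and H3K9me3 had 273 with DESeq2 and 207 among regions of like length.

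Leaving out each library in turn gave 462 further values, of which 13 lost the call, 24 changed direction and 13 moved. The lowest and highest differences in covered sequence were −1067 and 867 bp (Klf2 H3K27me3), −967 and 1533 bp (Klf2 H3K9me3), −1267 and 5233 bp (Klf4 H3K4me1), −300 and 1400 bp (Klf4 H3K9me3) and 0 and 1600 bp (Klf5 H3K27me3). In reads per kb at Klf4 they were −0.0324 and 9.69 for H3K27ac and −3.29 and 1.19 for H3K27me3. The width of the Klf4 H3K4me3 call at the start site differed by −270 to 626 bp. Against neighbours, Klf2 H3K4me3 differed by −0.39 to 0.36 points and Klf4 H3K27me3 by −0.15 to 0.15 in log2 reads per kb. The Klf4 H3K4me3 region at 17 kb stayed between −0.90 and −0.62, and the Klf5 H3K27ac region between 0.084 and 0.136. Counts ran from 1466 to 2093 for H3K4me3 (1615 without WT 1, 1518 without KO 2, 1466 without KO 3), 1659 to 1831 for H3K4me1 (1659 without KO 1), 266 to 497 for H3K27me3 (288 without WT 2, 318 without WT 3, 266 without KO 1, 319 without KO 2) and 38 to 107 for H3K9me3 (41, 44 and 38 without WT 1, 2 and 3, 63 without KO 1, 57 without KO 3).

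The clone numbers are shared between the genotypes but did not pair the samples, since same-numbered clones correlated at −0.018 to 0.027 over 15 pairs and were the best match in 7. With the replicate block 2674 H3K4me3, 2844 H3K27ac, 2124 H3K4me1, 479 H3K27me3 and 90 H3K9me3 regions were called, and no call at the members changed.

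With 3 clones a genotype, the exact test cannot fall under 0.1. The H3K4me3 lists hold no read counts, so that no counting interval can be given for their fold enrichment. Sequence outside calls has no value.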
